A study of Mus musculus with 4 samples.

Results

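The genes described here are Gas1, Boc and Cdon, which encode the Hedgehog co-receptors of vertebrates. They were chosen by name, with earlier results of these data known, and all 3 of the 3 were found among the 55573 genes of each file. The data come from primary mouse fibroblasts (MEFs), taken from embryos and grown in culture without having become an established line. Every culture had been given SAG, a small-molecule agonist of Smoothened, at 100 nM for 24 h. The 4 groups were wild type without transfection, Dyrk2-KO without transfection, wild type with the control siRNA siNegative (siNeg) and wild type with siDyrk2. Each group held 1 library. The sources used here do not say how the Dyrk2 allele was made or whether the cultures came from separate embryos, and cultures without SAG were not analysed here. The series addresses how the kinase DYRK2 regulates Hedgehog signalling. For the co-receptor genes the comparisons ask how their transcript levels differed with lasting loss of Dyrk2, with its short-term lowering, and between both controls.

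Hedgehog ligands bind the membrane protein Patched (Ptch1), which otherwise holds the signal transducer Smoothened inactive. GAS1, BOC and CDON sit at the cell surface, bind the ligand and help present it to Patched. GAS1 is attached through a lipid (GPI) anchor and resembles the receptors of the growth factor GDNF, while BOC and CDON are single-pass proteins with immunoglobulin and fibronectin type III repeats. Hedgehog signalling represses the co-receptor genes in several embryonic tissues, and induces Ptch1 and Hhip, so that a responding cell lowers the proteins that help ligand reception and raises those that hold the ligand back. SAG acts on Smoothened directly and does not need a ligand or a co-receptor. Gas1 is also known as a gene that fibroblasts switch on when they stop growing, and BOC and CDON as promoters of muscle differentiation through cadherins and the netrin receptor neogenin.

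Gas1 (ENSMUSG00000052957) lies on chromosome 13 at 60174405 to 60177365 (GRCm38), on the minus strand, and its 2 annotated transcripts form 1 exon block. Boc (ENSMUSG00000022687) lies on chromosome 16 at 44485049 to 44558897, minus strand, with 19 exon blocks. Cdon (ENSMUSG00000038119) lies on chromosome 9 at 35421128 to 35507652, plus strand, with 23 exon blocks. The long non-coding gene Gm48488 runs on the opposite strand across the start of Gas1 (60176682 to 60182862) and shares 589 exonic bases with it. The kit keeps strand, but whether the counting used it is not given in the sources used here, so fragments of this shared stretch may not be fully separated. Gm48488 held an estimated 9 fragments in wild type, 29 in the knockout, 12 with siNeg and 21 with siDyrk2, against 7834, 11983, 5722 and 8243 for Gas1. The small RNA genes annotated inside Boc and Cdon share 0 exonic bases with them.

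RefSeq start-site windows on GRCm38.p6 (250 bases before to 50 after the start) were found for 2 of the 3 genes. They are shown because Gas1 and Cdon followed different patterns across the libraries. The Gas1 window is chr13:60177486-60177785 on the minus strand and lies inside the span of Gm48488. All of it lies upstream of the GENCODE gene, which starts at 60177365 on that strand. The Cdon window is chr9:35451826-35452125 on the plus strand and lies within the GENCODE gene, downstream of its outermost start. Capitals mark a CCAAT box, read as CCAAT or its reverse complement ATTGG.
Gas1: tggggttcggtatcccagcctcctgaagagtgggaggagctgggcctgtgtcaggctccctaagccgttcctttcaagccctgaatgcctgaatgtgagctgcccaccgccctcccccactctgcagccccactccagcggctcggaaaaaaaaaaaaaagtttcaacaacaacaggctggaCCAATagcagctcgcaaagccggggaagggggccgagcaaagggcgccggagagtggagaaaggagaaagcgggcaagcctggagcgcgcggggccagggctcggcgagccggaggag
Cdon: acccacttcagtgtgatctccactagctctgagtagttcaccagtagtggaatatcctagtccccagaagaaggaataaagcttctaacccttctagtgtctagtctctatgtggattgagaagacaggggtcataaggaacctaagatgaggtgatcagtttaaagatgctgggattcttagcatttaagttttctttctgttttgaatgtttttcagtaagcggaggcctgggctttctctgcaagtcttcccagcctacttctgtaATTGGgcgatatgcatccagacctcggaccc
Each window held 1 such match. The Gas1 one lay before the start in the forward orientation, and the Cdon one after the start in the reverse orientation. Of 32851 windows of this length, 37.4% held at least 1 on either strand. Gas1 also had 1 GC box (GGGCGG or its reverse complement), found in 35.7% of windows, and Cdon had 0. The GLI-binding letters GACCACCCA, searched on both strands, were in neither window, nor in those of Ptch1 and Hhip, and 0.253% of all windows held them. A match is a stretch of letters and not a shown binding site, and these windows leave out most regulatory sequence.

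Levels are in FPKM, which divides the fragments of a gene by its exonic length and by the depth of the library, so levels of different genes can be set side by side. A bulk level cannot tell fewer expressing cells from less RNA per cell. Estimated depth was 20.0 to 23.9 M fragments per library (M, 1e+06). Dyrk2, the targeted gene, was at 6.59 FPKM in wild type, 0.57 in the knockout, 7.06 with siNeg and 0.81 with siDyrk2, so it was low where the labels say. Fibroblast marker genes were high, with 11 of 11 measured and summed levels of 6421 to 8273 FPKM. Of 32 markers of endothelial, epithelial, skeletal myogenic, neural and adipocyte cells 7 were measured: the endothelial Tek (2.55 to 4.63 FPKM), the myogenic Des (0.72 to 1.89), the neural Nes (2.68 to 3.79) and Tubb3 (4.67 to 18.57), and the adipocyte genes Pparg (1.73 to 2.69), Cebpa (6.04 to 11.45) and Cd36 (7.97 to 19.38). Some others of the same lists were near 0 in every library. Pecam1 and Epcam reached at most 0.06 FPKM, and Tie1, Elavl3, Adipoq, Myf5 and Pax7 were listed at 0. Further ones were not measured but came closer to 1 FPKM. Krt18 reached 0.98 FPKM with siNeg, Kdr 0.72 with siDyrk2, and Fabp4 0.94, Sox10 0.75 and Krt14 0.68 in the knockout. Macrophage markers were present, with a summed level of 229 FPKM in wild type, 478 in the knockout, 259 with siNeg and 323 with siDyrk2. The knockout culture also carried Y-linked Ddx3y at 8.28 FPKM, which was at 0.02 FPKM in wild type and listed at 0 in both siRNA libraries. By this gene the knockout culture held male cells that the others all but lacked, so the cultures differed in more than Dyrk2. No test was made, because each group held 1 library, and no difference below has a replicate check. Intervals in brackets are 95% counting intervals, which hold only the error of counting fragments and leave out how cultures vary.

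Gas1 was the most abundant co-receptor transcript and was higher in both libraries with low Dyrk2. Its level was 110.58 FPKM in wild type, 185.02 in the knockout, 96.72 with siNeg and 129.65 with siDyrk2. Both libraries with low Dyrk2 thus lay above both controls, as they did for 16.3% of the 12817 measured genes by FPKM alone, whatever the counting error. The knockout value was 1.67-fold the wild-type value (1.63 to 1.72), and the siDyrk2 value 1.34-fold the siNeg value (1.30 to 1.39). On the scale used for all genes, the log2 ratio of FPKM + 1, these differences were 0.74 and 0.42. Both controls differed by less, with siNeg at -0.19 relative to wild type. Against wild type in place of siNeg, the siDyrk2 difference was 0.23, so its size depended on which control was used.

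Cdon was the second most abundant of the co-receptor transcripts and followed another order. Its level was 51.53 FPKM in wild type, 60.16 in the knockout, 43.16 with siNeg and 33.30 with siDyrk2. Both transfected libraries lay below both untransfected ones, and the siDyrk2 library was the lowest. The knockout value was 1.17-fold the wild-type value (1.14 to 1.20), a log2 ratio of 0.22. With siDyrk2 the level was 0.772 times the siNeg level (0.744 to 0.800), a log2 ratio of -0.36. Between both controls the ratio was -0.25, which is larger in size than the knockout difference and smaller than the siDyrk2 difference. With the other control the knockout ratio was 0.47 and the siDyrk2 ratio -0.61.

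Boc, the least abundant of them, followed Cdon closely. Its level was 30.10 FPKM in wild type, 35.02 in the knockout, 25.58 with siNeg and 20.57 with siDyrk2. As for Cdon, the libraries ran from the knockout through wild type and siNeg to siDyrk2. By FPKM alone this order was found in 6.24% of the 12817 measured genes. The knockout value was 1.16-fold the wild-type value (1.11 to 1.22), a log2 ratio of 0.21. With siDyrk2 it was 0.804 times the siNeg level (0.757 to 0.855), a log2 ratio of -0.30. The ratio of both controls was -0.23, again larger in size than the knockout difference. With the other control the knockout ratio was 0.44 and the siDyrk2 ratio -0.53.

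**Figure D1:**
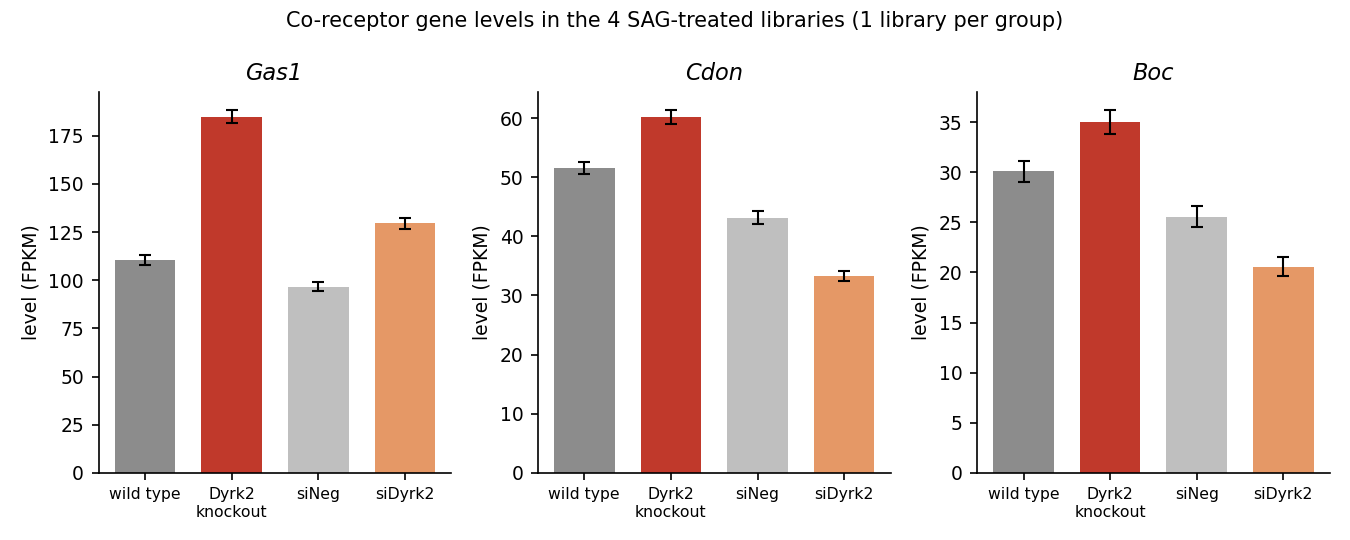
Level in FPKM (vertical axes, each from 0) of Gas1, Cdon and Boc in the 4 libraries (bars, 1 library each), with 95% counting intervals as error bars. Gas1 was higher in the knockout (185.02) and with siDyrk2 (129.65) than in either control, while Cdon and Boc were highest in the knockout and lowest with siDyrk2.

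Ordered by level, Gas1 ran from the knockout through siDyrk2 and wild type to siNeg, and Boc and Cdon both ran from the knockout through wild type and siNeg to siDyrk2. Every neighbouring pair of libraries in these orders differed beyond counting error, by 1.14-fold to 1.43-fold. Counting error is small for genes of this depth (1966 to 11983 estimated fragments), so such a difference was common: between both controls alone, 22.9% of 12817 measured genes were higher and 23.6% lower by the same criterion. In the knockout comparison 19.1% of genes were higher and 26.2% lower beyond counting error, and 28.3% were higher and 23.1% lower in the siRNA comparison.

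**Figure D2:**
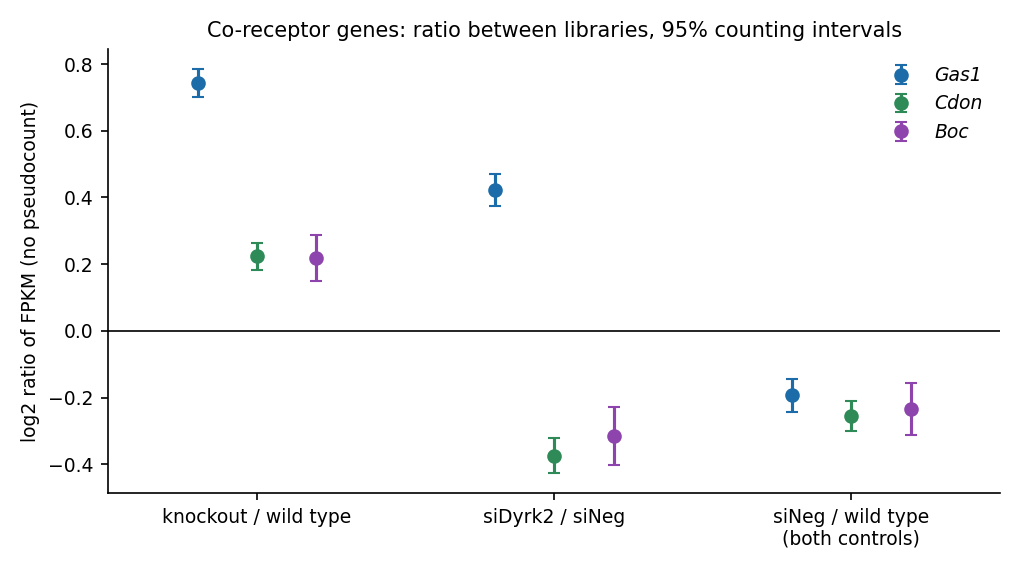
Log2 ratio of deposited FPKM without a pseudocount (vertical axis) for Gas1, Cdon and Boc (points) in the 3 comparisons, with 95% counting intervals. Gas1 lay above 0 in both Dyrk2 comparisons, whereas Cdon and Boc lay above 0 in the knockout and below 0 with siDyrk2, and all 3 lay below 0 between the controls.

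Counted together, 3 of 3 co-receptor genes were higher in the knockout, where 43.7% of the 12817 measured genes were higher and 55.6% lower, with a median log2 ratio of 0.22 against -0.02 over all genes. With siDyrk2, 1 of 3 was higher and 2 were lower, where 54.3% and 45% of all genes were, with medians of -0.30 and 0.02. Between both controls 3 of 3 were lower with siNeg, where 51% of all genes were lower and 48.3% higher, with medians of -0.23 and -0.01. None of them was 2-fold different on FPKM + 1 in any of the 3 comparisons. In the knockout comparison 0.57% of genes were 2-fold higher and 1.21% 2-fold lower. The figures were 0.749% and 0.796% in the siRNA comparison and 0.367% and 0.562% between the controls. Gas1 stood near the upper end in the knockout, with 1.48% of genes at its ratio or above, and 8.20% of genes were at or above its ratio with siDyrk2. For Cdon and Boc 12.7% and 13.3% of genes were at or above their knockout ratios, and 7.32% and 9.82% at or below their siDyrk2 ratios.

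The make-up of the co-receptor transcripts shifted towards Gas1 in both libraries with low Dyrk2. Gas1 made up 57.5% of the summed FPKM of the 3 genes in wild type and 58.5% with siNeg, against 66.0% in the knockout and 70.6% with siDyrk2. The sum itself was 192 FPKM in wild type, 280.2 in the knockout, 165 with siNeg and 184 with siDyrk2. The total was therefore higher in the knockout than in wild type, but with siDyrk2 it lay between both controls, where Gas1 was higher and Cdon and Boc were lower than with siNeg. The level of Cdon relative to Boc differed little, from 1.62 with siDyrk2 to 1.72 in the knockout.

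**Figure D3:**
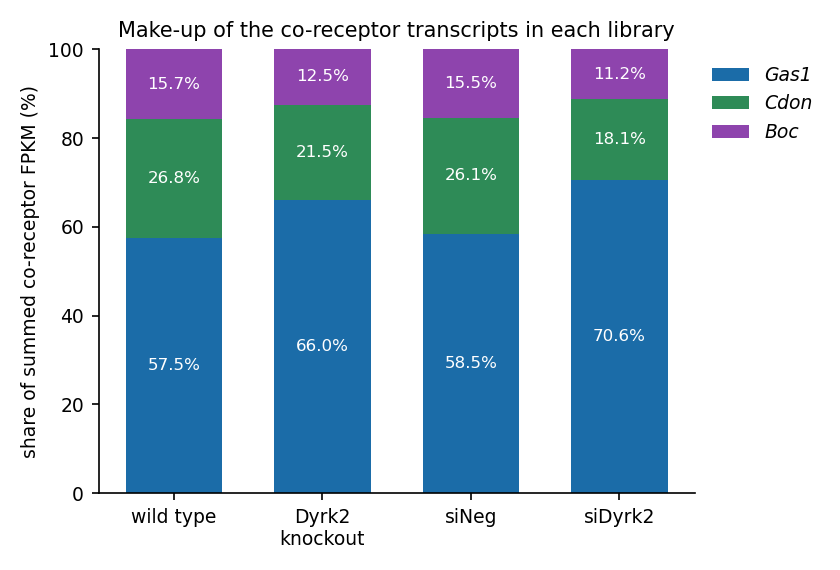
Share of each gene in the summed FPKM of Gas1, Cdon and Boc (vertical axis, percent) in the 4 libraries (stacked bars, 1 library each). The Gas1 share was 66.0% in the knockout and 70.6% with siDyrk2, against 57.5% and 58.5% in the controls.

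The receptor and antagonist genes Ptch1 and Hhip, whose proteins meet the ligand on the same surface, went the other way from Gas1. Ptch1, the receptor, was at 16.32 FPKM in wild type, 1.23 in the knockout, 16.03 with siNeg and 1.95 with siDyrk2. Hhip, for a decoy that binds the ligand, was at 3.87, 0.15, 2.64 and 0.25 FPKM in the same order. Together these transcripts amounted to 20.2 FPKM in wild type and 18.7 with siNeg, against 1.38 in the knockout and 2.2 with siDyrk2. The ratio of the Gas1 level to the Ptch1 level was 6.78 in wild type and 6.03 with siNeg, but 150.4 in the knockout and 66.5 with siDyrk2. For Cdon it was 3.16 and 2.69 in the controls, 48.9 in the knockout and 17.1 with siDyrk2. Boc stood at 1.84 and 1.60 times Ptch1 in the controls, 28.5 in the knockout and 10.5 with siDyrk2. Most of each shift in these ratios came from the Ptch1 level.

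Of 7 ligand-binding surface genes outside the co-receptors 5 were measured, meaning that they reached 1 FPKM in some library. In the knockout 4 of the 5 were lower, 2 of them by 2-fold, with a median of -0.17, and with siDyrk2 5 of 5 were lower, 3 of them by 2-fold, with a median of -1.27. The third was Gpc3, a glypican that competes with Patched for the ligand, at 98.90 FPKM in wild type, 87.63 in the knockout, 97.24 with siNeg and 39.61 with siDyrk2. Gpc3 was thus lowest in the siDyrk2 library, as Boc and Cdon were, but was not higher in the knockout than in wild type. The gene that was higher in the knockout was Gpc6, another glypican, at 25.67 FPKM in wild type, 28.72 in the knockout, 23.51 with siNeg and 20.04 with siDyrk2, the library order of Boc and Cdon. Lrp2 and Gpc5, which can also bind the ligand, were at 0.15 FPKM or less throughout.

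The Hedgehog ligands themselves were all but absent: Shh, Ihh and Dhh were at 0.08 FPKM or less in every library. Disp1, which releases the ligand from producing cells, was at 12.94 FPKM in wild type, 18.40 in the knockout, 14.82 with siNeg and 17.48 with siDyrk2. Of 8 genes for ligands and their release 3 were measured, and Disp1 was the only one of them that was higher in the knockout and with siDyrk2. Hhat, which attaches the lipid to the ligand, had ratios of -0.19 and -0.06, and Scube1, a secreted release factor, of -0.16 and -0.41.

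Downstream of the receptors, most transduction genes differed less than Gas1. Smo, the target of SAG, was at 35.43 FPKM in wild type, 33.34 in the knockout, 33.91 with siNeg and 30.95 with siDyrk2, so these libraries were nearly alike. In the knockout 10 of 24 measured transduction genes were higher and 14 lower, with a median of -0.05, and 7 were higher and 17 lower with siDyrk2, with a median of -0.06. The 2 that were 2-fold lower in each comparison were Gli1 (-4.59 and -3.26) and Gli2 (-1.15 and -1.12), which encode the transcription factors at the end of the pathway. Gli3, the main repressor form of the family, was at 0.09 and -0.15. Prkacb, for a protein kinase A catalytic subunit, had ratios of -0.00 and -0.82, and Kif3a, a motor subunit for cilia, of 0.03 and 0.48. Among 15 Hedgehog targets with a measured level, 11 had a lower value in the knockout and 12 with siDyrk2, with medians of -0.55 and -0.23. The 3 that were 2-fold lower in each were Gli1, Ptch1 and Hhip, which the lists above already count. By FPKM alone, 1 of the 15 targets, Osr1, had both libraries with low Dyrk2 above both controls. The library order of Boc and Cdon was found in 2, Igfbp6 and Sfrp1. Among the 24 transduction genes these counts were 2 and 3.

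The relatives of GAS1 were mixed. Of 6 GDNF receptor family genes 3 were measured, and for 1 of them, Gfra1, both libraries with low Dyrk2 lay above both controls, as for Gas1. Gfra1, the GDNF receptor, was at 4.37 FPKM in wild type, 6.30 in the knockout, 5 with siNeg and 5.43 with siDyrk2, ratios of 0.44 and 0.10. Unlike Gas1, its siDyrk2 level did not differ from siNeg beyond counting error (fold 0.967 to 1.22). Gfra2, the neurturin receptor, was at 14.62, 8.89, 8.08 and 3.50 FPKM in the same order, and lower in both comparisons, at -0.66 and -1.01. Both controls also differed in Gfra2, by -0.78, and its order of libraries differed from those of Gas1 and Cdon. Gfra4 was at -0.13 and 0.20, and Ret, the shared signalling receptor, was at 0.15 FPKM or less.

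Among 14 measured relatives and binding partners of BOC and CDON, 8 were lower in the knockout and 11 with siDyrk2, with medians of -0.06 and -0.17. Neo1, which encodes the netrin receptor neogenin, was at 20.74 FPKM in wild type, 19.56 in the knockout, 22.88 with siNeg and 20.95 with siDyrk2, and Cdh2, N-cadherin, at 19.18, 15.25, 20.37 and 23.11. Neither followed the library order of Cdon and Boc. By FPKM alone 3 of the 14 did: Ntn1, the guidance receptor gene Robo2 (6.29 FPKM in wild type, 6.55 in the knockout, 5.25 with siNeg and 4.55 with siDyrk2) and Spag9, for a scaffold of p38 kinase signalling. Knockout and wild type did not differ beyond counting error for Ntn1 (fold 0.944 to 1.06) and Robo2 (0.985 to 1.10). The netrin genes differed more with siDyrk2 than these receptors: Ntn1 had ratios of 0.00 and -0.95, Ntn3 at -0.56 and -0.80, and Ntn4 at 0.04 and 0.71. Robo1, a guidance receptor of the same immunoglobulin superfamily, was at 0.01 and -0.51. Dcc and the muscle cadherin Cdh15 were at 0.14 FPKM or less.

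**Figure D4:**
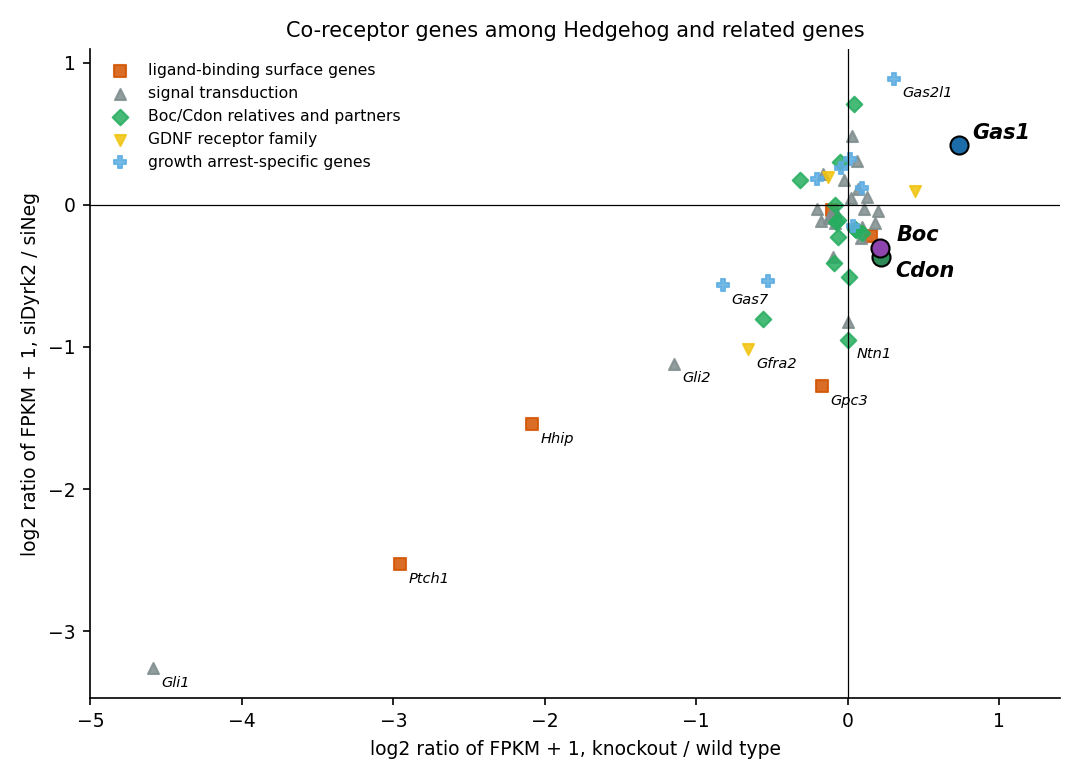
Log2 ratio of FPKM + 1 in the knockout comparison (horizontal axis) and the siRNA comparison (vertical axis) for measured genes of 5 lists (small symbols) and for Gas1, Cdon and Boc (large circles), with 1 library per group. Gas1 lies at 0.74 and 0.42, Cdon at 0.22 and -0.36, Boc at 0.21 and -0.30, and Ptch1, Hhip, Gli1 and Gli2 lie at -1 or below on both axes.

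Gas1 is named for its rise in growth-arrested fibroblasts, so the other genes of that name and cell division genes were set beside it. Of 8 growth arrest-specific genes outside Gas1, 4 were higher and 4 lower in the knockout, with a median of -0.02, and 5 were higher and 3 lower with siDyrk2, with a median of 0.15. Gas6, a ligand of TAM receptor kinases, was at 500.31 FPKM in wild type, 346.51 in the knockout, 450.60 with siNeg and 309.91 with siDyrk2, lower where Gas1 was higher. Gas7 was likewise at -0.82 and -0.56, Gas2l1, a cytoskeletal linker, at 0.31 and 0.89, and the non-coding Gas5 at 0.01 and 0.33. The G2/M genes, a list taken up with earlier results of these data known, were lower in 19 of 19 in the knockout with a median of -1.15, among them Plk1 (-1.52), Top2a (-1.42), Aurkb (-1.38) and Mki67 (-1.37). With siDyrk2 14 of 19 were lower, with a median of -0.14, and between both controls 19 of 19 were higher with siNeg, with a median of 0.50. Their part in the Gas1 difference was not tested.

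Markers of the cells in the culture also differed between the libraries, in some comparisons in the other direction from the co-receptor genes. In the knockout 7 of 7 measured macrophage markers were higher, with a median of 0.84, as they were with siDyrk2, with a median of 0.23, and with siNeg against wild type, with a median of 0.36. For 7 of the 7 both libraries with low Dyrk2 lay above both controls by FPKM alone, as for Gas1. For Csf1r siDyrk2 (6.18 FPKM) and siNeg (6.09) did not differ beyond counting error. In the knockout the 3 measured adipocyte markers were above wild type (median 0.43), and with siDyrk2 2 were higher and 1 lower than with siNeg (median 0.16). By FPKM alone Cd36 had the library order of Gas1, with ratios of 1.13 and 0.54, and the others did not. Pparg was at -0.03 with siDyrk2, and Cebpa was lower with siDyrk2 (6.84 FPKM) than in wild type (8.56). With siDyrk2 the neural Tubb3 was at 0.98 and the myogenic Des at 0.75, against -0.64 and 0.09 in the knockout. Fibroblast markers were mixed in the knockout, with 7 of 11 higher and a median of 0.06. With siDyrk2 7 of 11 were lower, with a median of -0.31. The collagen genes Col1a1 (-0.43), Col1a2 (-0.44) and Col3a1 (-0.41) and Pdgfra (-0.49) lay near the ratios of Cdon and Boc. Pdgfrb (0.60) and Vim (0.59) were higher, and Thy1 was at -0.31 against -0.85 in the knockout. The named collagen genes and Twist1, 4 of the 11, shared the library order of Cdon and Boc by FPKM alone. Some steps were small: Col1a1 and Col1a2 were at 0.02 and 0.06 in the knockout, and these and Twist1 were at -0.01 between both controls. The part of these markers in the co-receptor differences was not tested.

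Genes with the most similar profile were then named for each co-receptor gene, by the distance between log2(FPKM + 1) values centred over the 4 libraries, among 7484 other protein-coding genes that reached 5 FPKM in some library. With 4 libraries the measure is coarse, and it says nothing of shared function. For Gas1 the nearest were Dhrs3, a retinal reductase, at a distance of 0.07, followed by the cadherin Cdh8, the NF-kB inhibitor gene Nfkbia, Spon2 and the cyclooxygenase gene Ptgs1, at up to 0.14. Dhrs3 was at 3.47 FPKM in wild type, 6.92 in the knockout, 2.94 with siNeg and 4.23 with siDyrk2, the same order as Gas1. The + 1 shrinks the differences of a low gene such as Dhrs3 more than those of Gas1, which affects the distance. For Boc the nearest were the calpain-like Capn6, Mtss1l, the receptor phosphatase gene Ptprd, Begain and Cdon itself, at distances of 0.05 to 0.07. For Cdon they were Trim66, Begain, Ptprd, the collagen gene Col3a1 and Hsdl1, at 0.04 to 0.05, and Boc ranked 7 of 7484. Gas1 was farther from both, at a distance of 0.69 and rank 3840 for Cdon and 0.64 and rank 4133 for Boc. Ranked from the Gas1 side, Boc was at 1985 and Cdon at 2701.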

How the data were processed

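RNA was measured in 4 libraries, 1 per group, without replicates. Per the labels' protocols, DNase-treated RNA was selected for polyA and prepared with a stranded kit. GRCm38, HISAT2 2.0.1 and cutadapt 1.9.1 are named in the submitters' processing notes. The program that counted fragments is not given in the sources used here, nor is its annotation. Each file holds deposited FPKM to 2 decimals, beside each gene's exonic length, per the file headers. FPKM times length in kilobases summed to 1e+06 in every library within rounding. Of 55573 gene identifiers 55480 matched GENCODE M21 (GRCm38), and 99.5% of these had the same exonic length there.

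No read counts are given. The depth that made 100% of 331 to 390 genes of at most 200 bases whole fragments, within the 0.005 FPKM of rounding, was taken as each library's depth; in units of 1e+06 fragments it came to 23.9 (wild type), 21.9 (knockout), 20.0 (siNeg) and 21.5 (siDyrk2). From these fragments, 95% counting intervals were computed as exact conditional binomial for fold values and exact Poisson for levels. The depth search and the intervals were tested on simulated data.

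Log2 ratios are of FPKM + 1, which understates differences of low genes, and fold values are of deposited FPKM. A gene counts as measured where any library reached 1 FPKM, and 2-fold refers to FPKM + 1. Genes with a given library order were counted on deposited FPKM, without regard to counting error. No test was made. 1 gene of the lists is not reported here. The alternatives were other pseudocounts, scalings, filters and controls. The members, the 15 gene lists and the comparisons were chosen with earlier results of these data known. By rule the text names the co-receptor genes, Dyrk2, a fixed set of pathway genes, up to 4 genes per list by size of ratio, and the 5 nearest profiles. Other choices were made after the values were seen. These are list members named for their role, their library order or as markers, Ddx3y, Gm48488 and the counts of genes with a given library order. Analyses used Python 3.11.15, numpy 2.4.6, pandas 2.3.3 and scipy 1.17.1.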

Additional observations from a re-analysis of the deposited data

Results flagged for a closer look

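Boc and Cdon each went in opposite directions in the 2 ways of lowering Dyrk2, which was not tested, since each comparison rests on 1 library per group. Boc was at 35.02 FPKM in the knockout against 30.10 in wild type, and at 20.57 with siDyrk2 against 25.58 with siNeg, a difference of 0.51 between the log2 ratios. Cdon was at 60.16 against 51.53 FPKM and at 33.30 against 43.16 FPKM, a difference of 0.58. For both genes the ratio between the controls (-0.23 and -0.25) was larger in size than the knockout ratio. Both kept these directions with either control library, which follows from the knockout being the highest and siDyrk2 the lowest library for both genes. The exchanged controls also set a transfected culture against an untransfected one.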

How the results depend on the processing

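The directions of Gas1, Boc and Cdon in the 3 comparisons were kept under every alternative tried. Pseudocounts of 0.1 and 5 FPKM, trimmed-mean scaling and upper-quartile scaling moved none of the 9 ratios beyond its counting error. The choice of control moved all 6 co-receptor ratios of the Dyrk2 comparisons: with siNeg as the control of the knockout they were 0.93 for Gas1, 0.44 for Boc and 0.47 for Cdon, and with wild type as the control of siDyrk2 0.23, -0.53 and -0.61. Dyrk2, a gene of low level, was at -3.32 and -2.98 with a pseudocount of 0.1 FPKM and at -1.06 and -1.05 with 5.

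The background counts of genes 2-fold higher and lower depended on low values. They were 73 and 155 in the knockout, 96 and 102 with siDyrk2 and 47 and 72 between the controls. With a filter of 5 FPKM they were 28 and 75 in the knockout, 43 and 42 with siDyrk2 and 9 and 23 between the controls. With a pseudocount of 0.1 FPKM they were 203 and 405 in the knockout, 297 and 209 with siDyrk2 and 127 and 213 between the controls. With a pseudocount of 5 FPKM they were 8 and 14 in the knockout, 19 and 14 with siDyrk2 and 3 and 8 between the controls. Among protein-coding genes they were 27 and 85 in the knockout, 38 and 48 with siDyrk2 and 2 and 15 between the controls. With siNeg as control the knockout counts were 174 and 254. No paired analysis was possible because each group held 1 library, and no library could be left out for the same reason.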
